A study of Mus musculus with 18 samples.

Results

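The respiratory chain genes were taken to be the protein-coding genes whose mouse symbol begins with Nduf followed by a, b, c, s or v, with Uqcr, with Cox4 to Cox8, with Atp5 or with mt-, together with *Sdha*, *Sdhb*, *Sdhc* and *Sdhd*. Of the 45706 genes listed for every library, 106 met this naming rule, which used no measured value. The nucleus encodes 93 of them and mitochondrial DNA encodes 13. Complex I had 44 nuclear genes, of which 8 are assembly factors, and 7 mitochondrial genes. Complex II had 4 nuclear genes and no mitochondrial gene, complex III had 8 nuclear genes and 1 mitochondrial gene, complex IV had 20 and 3, and complex V, the ATP synthase, had 17 and 2.

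The respiratory chain sits in the inner membrane of mitochondria, where complexes I and II take electrons from NADH and succinate, complex III passes them to cytochrome c and complex IV passes them to oxygen. The protons pumped on the way drive complex V, which makes ATP. All complexes other than II are built from subunits of both genomes: nuclear genes are transcribed separately and their proteins imported, whereas the mitochondrial genes are read as long transcripts that are cut into single messages. T cells rely on this machinery to different degrees in rest, activation and prolonged stimulation.

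Gene expression was measured by RNA-seq of polyadenylated RNA in 18 cultures of CD8+ T cells from OT-I mice, whose T cell receptor recognizes an ovalbumin (OVA) peptide. Single peptide stimulated cells saw the peptide at the start and then rested without it, whereas repeat peptide stimulated cells received it daily up to day 5 and, by the study's methods, still had it in the medium during the treatment that followed, a culture model of T cell exhaustion. From day 5 to day 8 both kinds of cells were treated with DMSO, the solvent, or with 1 µM ibrutinib, an inhibitor of Tec family kinases such as BTK, and were harvested on day 8. The comparisons asked how repeat stimulation and ibrutinib each changed expression, and whether the drug acted differently on the 2 kinds of cells. There were 4 libraries of repeat peptide cells with DMSO (experiments A to D), 5 of repeat peptide cells with ibrutinib (A to E), 5 of single peptide cells with DMSO (A to D and F) and 4 of single peptide cells with ibrutinib (A to D). All cultures were grown with IL-7 and IL-15, and the strain entry of the labels calls all of the mice OT-1 wild type. The genotype entry names a *btk* knockout for experiments B to E and other texts for A and F. This entry was taken as an experiment name, since the study describes no *btk* deficient cells for this RNA-seq. The experiments are taken from that entry, and p-values measure the spread between these cultures.

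The total expected count per library was 23445922 to 51995372 (median 27420966). All 6 markers of CD8 T cells, among them *Cd8a* at 312 to 677 TPM, RSEM's level per gene length and depth, were present in every library, with a summed level of 2661 to 4100 TPM. *Cd4* reached at most 0.17 TPM, and the 4 B cell markers summed to 1.06 to 4.09 TPM in repeat peptide cells and 3.17 to 7.10 TPM in single peptide cells, nearly all of it *Cd79b*. The 4 myeloid markers summed to 0.12 to 6.23 TPM. The mean fragment length of a library, worked out from the deposited effective gene lengths, was 339 to 408 bases. The shortest fragments of each group were in single DMSO D (339 bases), repeat ibrutinib E (341), repeat DMSO D (347) and single ibrutinib D (354). In the same order, these libraries gave 0.924, 1.11, 0.983 and 0.821% of their counts to the nuclear members. Each of these shares was the largest of its group. The part of fragment length in the results was not tested beyond the fits that contain it as a covariate.

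Within a library TPM allows genes of different length to be compared. Averaged over the 18 libraries, the nuclear members of complex V had the highest median level, 324 TPM, followed by those of complex III (224 TPM), complex IV (159.5 TPM), complex II (133 TPM) and complex I (103 TPM). The highest nuclear members were *Atp5e*, the epsilon subunit of ATP synthase, at 1074 TPM and *Cox4i1*, a complex IV subunit, at 1059 TPM. TPM divides by an effective length that shrinks as fragments lengthen. The levels of short members, and the order of the complexes with them, are thus uncertain. In repeat DMSO A (mean fragments of 353 bases) *Atp5e* had 2022 normalized counts and 831 TPM, and in repeat DMSO C (404 bases) 1557 and 1015. *Ndufaf4*, a complex I assembly factor, had only 10.4 TPM. Messages from mitochondrial DNA were more abundant: *mt-Co1*, the catalytic subunit of complex IV, had 6406 TPM, *mt-Cytb* of complex III 2516 TPM, *mt-Co3* 2269 TPM and *mt-Nd1* 2066 TPM. *mt-Nd6*, the only one of the 13 that is read from the light strand, had 25.7 TPM, from 45 to 242 counts per library. The libraries hold polyadenylated RNA, and how well each message was captured was not tested. By counts, *mt-Co1* alone held 40.1 to 47.2% (median 43.2%) of the reads of the 13 genes and *mt-Nd6* 0.00813 to 0.0491%.

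Several tissue-restricted isoforms had few reads or none. *Cox4i2*, *Cox7b2*, *Cox8b*, *Cox8c* and *Ndufa4l2* had no count in any library and *Cox6a2* reached 1 count. *Cox7a1*, the heart and muscle form of a complex IV subunit, reached 22 counts and was at 0 in 6 of 18 libraries. It was at 3.04, 12.28, 12.65 and 3.32 TPM in repeat peptide cells with DMSO (experiments A to D) and 1.42 to 9.47 TPM in those with ibrutinib, against 0 to 0.98 and 0 to 1.0 TPM in single peptide cells. The stimulations thus did not overlap for *Cox7a1*, on counts too low to be tested. These 7 genes did not pass the filter on low counts, which left 86 nuclear and 13 mitochondrial members among the 12255 genes tested. For *Cox4i2* and the other members without a count, a count of 0 allows up to 3 counts per library, and this limit covers counting error only.

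The share of all TPM that the 93 nuclear members held was larger in repeat than in single peptide stimulated cells. It was 2.17, 2.49, 2.35 and 2.45% in repeat peptide cells with DMSO (experiments A to D, 2.37% ± 0.14, SD, n = 4) and 1.77, 1.70, 2.02, 2.10 and 1.74% in single peptide cells with DMSO (A to D and F, 1.87% ± 0.18, SD, n = 5). The 2 groups did not overlap, and per experiment from A to D the repeat peptide share was 1.23, 1.47, 1.16 and 1.17 times the single peptide share. As a share of counts the groups overlapped, at 0.822 to 0.983% in repeat and 0.655 to 0.924% in single peptide cells with DMSO, and the ratios were 1.25, 1.37, 1.02 and 1.06. With ibrutinib the shares of TPM were 2.27% ± 0.17 (SD, n = 5) and 1.84% ± 0.07 (SD, n = 4), and the ratios 1.16, 1.19, 1.22 and 1.298. A share of transcripts cannot tell more RNA per cell from a different mix of cells, and the same holds for all levels. Between treatments, the ibrutinib to DMSO ratio of the nuclear share was 0.962, 0.840, 0.993 and 0.994 in repeat peptide cells and 1.02, 1.04, 0.943 and 0.893 in single peptide cells.

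By complex, the nuclear share of TPM in DMSO was 0.592% in repeat against 0.434% in single peptide cells for complex IV, 0.622% against 0.505% for complex I, 0.262% against 0.198% for complex III, 0.0548% against 0.0421% for complex II and 0.834% against 0.688% for complex V. All 5 means were thus higher in repeat peptide cells. These sums are descriptions without a test. TPM depends on what the other genes of a library do and, for short members, on fragment length.

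The 13 mitochondrial genes showed no such separation in their share of TPM. By counts, the nuclear shares with DMSO overlapped as well. They held 4.71, 2.70, 2.74 and 2.79% of all TPM in repeat peptide cells with DMSO (3.24% ± 0.99, SD, n = 4) and 3.42, 2.90, 2.34, 2.90 and 3.36% in single peptide cells with DMSO (2.98% ± 0.44, SD, n = 5). With ibrutinib they held 3.25% ± 0.67 (SD, n = 5) and 2.98% ± 0.76 (SD, n = 4), and all 4 groups overlapped. A TPM value of a gene no longer than the fragments is uncertain, which touches 3 of the 13. Short nuclear members such as *Atp5e* bring a like uncertainty into the nuclear share. *mt-Atp8*, 204 bases long, had an effective length of 0 to 5.44 bases, so that it was listed at 0 TPM in 8 libraries that had 196 to 405 counts of it and at 8370 to 16520 TPM in the others. Without *mt-Atp8*, *mt-Nd3* and *mt-Nd4l* the share was 2.38% ± 0.54 (SD, n = 4) and 1.95% ± 0.61 (SD, n = 5) in repeat and single peptide cells with DMSO and 2.07% ± 0.19 (SD, n = 5) and 2.27% ± 0.05 (SD, n = 4) with ibrutinib, a choice made after seeing the data. All 4 groups still overlapped.

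**Figure D1:**
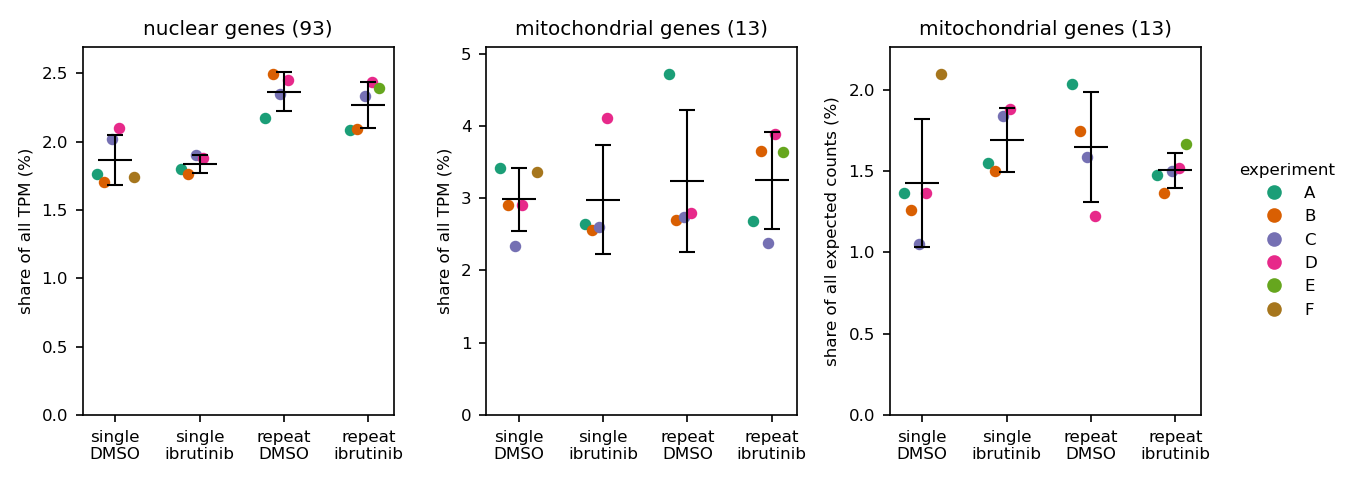
Share of all TPM held by the nuclear members (left) and by the 13 mitochondrial genes (middle), and share of all expected counts held by the mitochondrial genes (right), in percent; each point is a library coloured by experiment, and the bar is the group mean ± SD. The nuclear share of TPM is 2.17 to 2.49% in repeat and 1.70 to 2.10% in single peptide cells with DMSO, while the mitochondrial shares of the groups overlap. The nuclear share of counts, which is not drawn, overlaps between these DMSO groups.

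The DMSO libraries of both stimulations were then compared gene by gene with edgeR's quasi-likelihood test on the counts, with p-values adjusted over all tested genes by the Benjamini-Hochberg method. A gene was called when its adjusted p was under 0.05, its normalized count averaged 50 or more and its log2 fold change exceeded 0.2 in either direction. Of the 86 nuclear members tested, 14 were called: 11 rose and 3 fell with repeat stimulation. These are 16.3% of the nuclear members, where 47% of all tested genes were called, 22.8% higher and 24.2% lower. Their median log2 fold change was 0.15 against -0.00 over all tested genes, with 57 members above 0 and 29 below. That median was not steady between experiments: it was 0.25 in experiment A and 0.42 in B but -0.17 in C and -0.13 in D. The mean fragments of the single peptide DMSO library of experiment D were the shortest of all (339 bases), and without that library 20 nuclear members were called, 18 of them higher. With the experiment as a block, 28 nuclear members were called, 21 higher and 7 lower and including all 14, against 53.6% of all tested genes. With fragment length as a covariate, an alternative chosen after seeing the data, 24 were called, 22 of them higher.

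The called members were spread over 4 of the 5 complexes. In complex I, 6 of 44 were called (4 higher and 2 lower), among them 2 of the 7 nuclear core subunits, 1 of the 29 accessory subunits and 3 of the 8 assembly factors. In complex II 1 of 4 was called, in complex IV 4 of the 13 tested (3 higher and 1 lower) and in complex V 3 of 17, all higher. In complex III none of 8 was called by edgeR or DESeq2, and each had 1 of them, *Uqcr10*, at an unadjusted p under 0.05. Blocking by experiment, 2 of the 8 were called, *Uqcr10* higher and *Uqcrh* lower. In the other complexes the block gave 13 calls in complex I (9 higher and 4 lower, 8 of them accessory subunits), 2 in II, 6 in IV and 5 in V. Without it the median log2 fold change was 0.28 in complex IV, 0.27 in complex II, 0.19 in complex III, 0.09 in complex I and 0.04 in complex V.

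**Figure D2:**
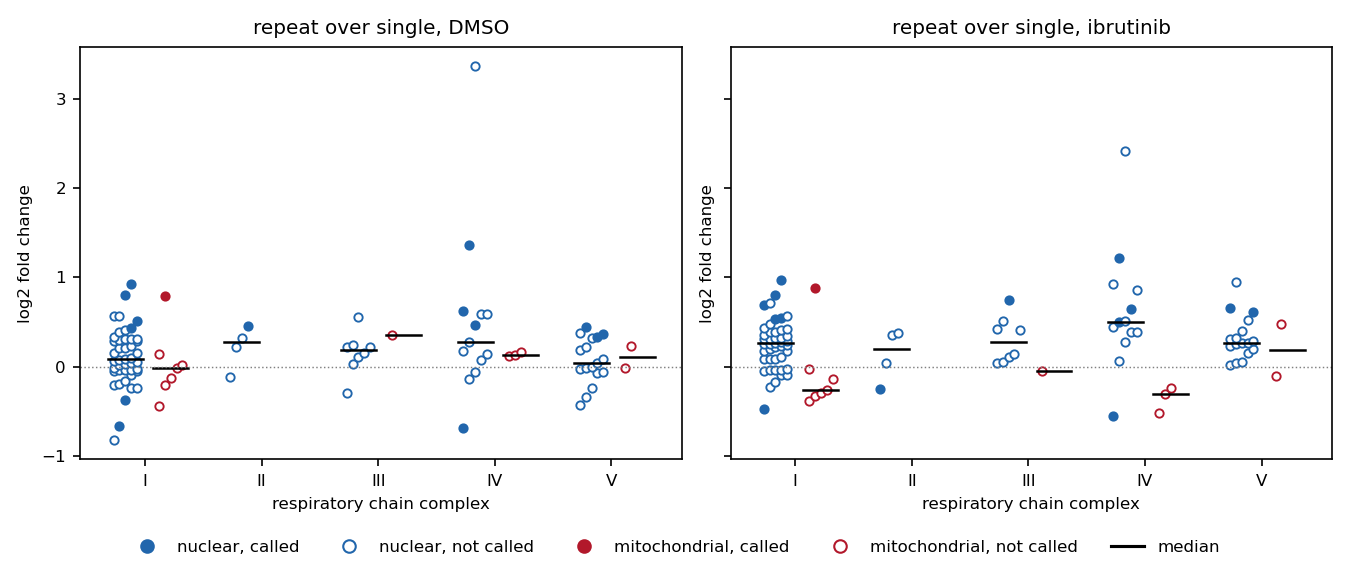
Log2 fold change of each tested member between repeat and single peptide stimulated cells, by complex, for the nuclear (blue) and mitochondrial (red) genes; filled points were called and black lines are medians. With DMSO 11 nuclear members were called higher and 3 lower.

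*Ndufa4*, which was first assigned to complex I and is now placed in complex IV, rose furthest on the fold scale among the called members (chromosome 6 from 11900292 to 11907497 of GRCm38). It had 1520.2, 1428, 1179 and 2005 normalized counts in repeat peptide cells with DMSO (experiments A to D) and 496, 339, 529, 1078 and 537 in single peptide cells with DMSO (A to D and F). The groups did not overlap, although the single peptide library of experiment D was far above the other 4, and the log2 fold change was 1.36 ± 0.36 (SE, edgeR's adjusted p = 0.00383), a 2.57-fold rise. *Cox5a*, a subunit of complex IV that helps to regulate it, rose as well. It had 2931, 3474, 2614 and 3164 normalized counts in repeat and 1808, 1847, 2220.2, 2283 and 1693 in single peptide cells, again without overlap. Its log2 fold change was 0.63 ± 0.13 (SE, edgeR's adjusted p = 0.000493), and it was higher in all 4 experiments. *Cox6a1*, the liver-type form of a complex IV subunit, had 2571, 4023, 2961 and 4203 against 1909, 2259.7, 3054, 3092 and 2082. Its groups overlapped, it was higher in only 3 of 4 experiments, and its log2 fold change was 0.47 ± 0.19 (SE, edgeR's adjusted p = 0.0448). The call for *Cox6a1* was lost when any of 6 libraries was left out: repeat DMSO B or D, repeat ibrutinib C, or single DMSO A, B or F.

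*Cox7a2l*, also known as *Scaf1*, fell (chromosome 17 from 83501918 to 83517330). Its protein has been linked to the joining of complexes III and IV into supercomplexes, and neither was measured here. *Cox7a2l* had 6098, 7619, 6404 and 6279 normalized counts in repeat and 9176, 10168, 11339, 12402 and 9957 in single peptide cells with DMSO. All repeat peptide values were below all single peptide values, and the log2 fold change was -0.68 ± 0.16 (SE, edgeR's adjusted p = 0.00126). Its relative *Cox7a2*, a regular complex IV subunit, had 1702, 1962, 1579.8 and 2419.6 against 1068, 963, 985, 2358 and 962 normalized counts. These overlapped only through single DMSO D, and *Cox7a2* was not called at 0.59 ± 0.34 (SE, edgeR's adjusted p = 0.155). As a share of the TPM of the pair, *Cox7a2* held, with DMSO, 34.7% ± 4.1 (SD, n = 4) in repeat and 17.2% ± 4.7 (SD, n = 5) in single peptide cells. Under ibrutinib it held 29.6% ± 6.9 (SD, n = 5) and 14.4% ± 2.5 (SD, n = 4). *Cox7a2* was called once the experiment was a block, at 0.61 ± 0.18 (SE, edgeR's adjusted p = 0.0103).

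In complex I, 2 of the 8 assembly factors rose and 1 fell. *Ndufaf7*, which methylates a core subunit during assembly, had 839.8, 839, 886 and 788 normalized counts in repeat and 408, 389, 584, 514 and 499.7 in single peptide cells with DMSO. This was the smallest adjusted p of all members, with a log2 fold change of 0.81 ± 0.13 (SE, edgeR's adjusted p = 4.99e-05) and no overlap. *Ndufaf2*, which is needed for a late step of assembly, had 293, 254, 264 and 348 against 88.9, 136, 171, 249 and 115. Its groups were apart by little, since single DMSO D reached nearly the lowest repeat peptide value, and the log2 fold change was 0.93 ± 0.27 (SE, edgeR's adjusted p = 0.00797). *Ndufaf4*, which works together with *Ndufaf3*, had 616, 547, 476 and 557 against 766, 873, 978, 852 and 878. Every repeat peptide value lay below every single peptide value, at a log2 fold change of -0.66 ± 0.15 (SE, edgeR's adjusted p = 0.0013). The other 5 assembly factors were not called and had log2 fold changes from -0.09 (*Ndufaf5*) to 0.29 (*Ndufaf3*).

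Among the subunits of complex I, *Ndufv1*, the core subunit that binds NADH, had 3549.9, 3742, 3620.1 and 3613 normalized counts in repeat and 2419, 2377, 3205, 2999.9 and 2419 in single peptide cells. The repeat peptide values were close together and all above the single peptide values, at a log2 fold change of 0.44 ± 0.10 (SE, edgeR's adjusted p = 0.00099). *Ndufs7*, a core subunit with an iron-sulfur cluster, went the other way, with 1099, 1482, 1229 and 1311 against 1616, 1588, 1794, 1832 and 1431. Its groups overlapped and its log2 fold change was -0.37 ± 0.13 (SE, edgeR's adjusted p = 0.0277). *Ndufs7* was no longer called without repeat DMSO A, repeat DMSO C, single DMSO C or single DMSO D, nor with fragment length as a covariate. *Ndufa11*, an accessory subunit of the membrane arm, had 797, 1049, 851 and 1076 against 513, 727, 772, 794 and 506. The groups only just missed each other, and the log2 fold change was 0.51 ± 0.19 (SE, edgeR's adjusted p = 0.033). Its call was lost without repeat DMSO B, repeat DMSO D, single DMSO A or single DMSO F. *Ndufa6*, an accessory subunit, was at -0.82 ± 0.36 (SE, edgeR's adjusted p = 0.0595) and so not called, but it was called lower with the experiment as a block, at -0.78 ± 0.14 (SE, edgeR's adjusted p = 0.000151).

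Complex II consists of a flavoprotein (*Sdha*), an iron-sulfur protein (*Sdhb*) and a pair of membrane anchors (*Sdhc* and *Sdhd*). *Sdhd* rose, with 3171, 3514, 3673 and 3615 normalized counts in repeat and 2253, 2321, 2934, 3025 and 2231 in single peptide cells with DMSO. Its groups did not overlap and its log2 fold change was 0.45 ± 0.15 (SE, edgeR's adjusted p = 0.0169). The other 3 were not called, with log2 fold changes of 0.33 for *Sdhb* (edgeR's adjusted p = 0.231), 0.22 for *Sdhc* (edgeR's adjusted p = 0.149) and -0.11 for *Sdha* (edgeR's adjusted p = 0.306). *Sdhb* was called higher with the experiment as a block, at 0.29 ± 0.11 (SE, edgeR's adjusted p = 0.0299).

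In complex V, *Atp5a1* and *Atp5b*, the alpha and beta subunits that form the catalytic head, both rose. *Atp5b* had 29097, 32800.3, 34604 and 34826 normalized counts in repeat and 21198, 23697, 31558, 27955 and 22863 in single peptide cells with DMSO, overlapping because of single DMSO C, and a log2 fold change of 0.37 ± 0.13 (SE, edgeR's adjusted p = 0.0229). *Atp5a1* was at 0.34 ± 0.11 (SE, edgeR's adjusted p = 0.0177). *Atp5b* was not called without repeat DMSO C, repeat DMSO D, single DMSO A or single DMSO F, and *Atp5a1* was not called without repeat DMSO C. *Atp5g3*, 1 of 3 genes for the same c-ring protein, had 6316, 5780.3, 6652 and 6888 against 3939, 4299, 6248, 5137 and 3851. Single DMSO C overlapped with the repeat peptide libraries, and the log2 fold change was 0.45 ± 0.15 (SE, edgeR's adjusted p = 0.0147). The other c-ring genes were not called, at -0.07 for *Atp5g1* and -0.02 for *Atp5g2*. *Atp5g3* thus held 53.1% ± 4.3 (SD, n = 4) of the TPM of the 3 genes in repeat and 45.2% ± 3.8 (SD, n = 5) in single peptide cells with DMSO, and 51.6% ± 1.5 (SD, n = 5) and 41.6% ± 1.1 (SD, n = 4) with ibrutinib.

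*Cox6b2*, the testis-type form of a complex IV subunit, was low in all groups but differed widely. It had 31, 32, 62 and 49 expected counts in repeat peptide cells with DMSO against 5, 1, 8, 2 and 1 in single peptide cells with DMSO. With ibrutinib it had 11, 13, 8, 56 and 8 in repeat and 0, 4, 4 and 4 in single peptide cells, so that the stimulations did not overlap with either treatment. The log2 fold change with DMSO was 3.37 ± 0.64 (SE, edgeR's adjusted p = 0.000236), but at a mean normalized count of 15.3 it missed the minimum of 50 and was not called. Its partner *Cox6b1* held 98.3% or more of the TPM of the pair on average in every group.

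**Figure D3:**
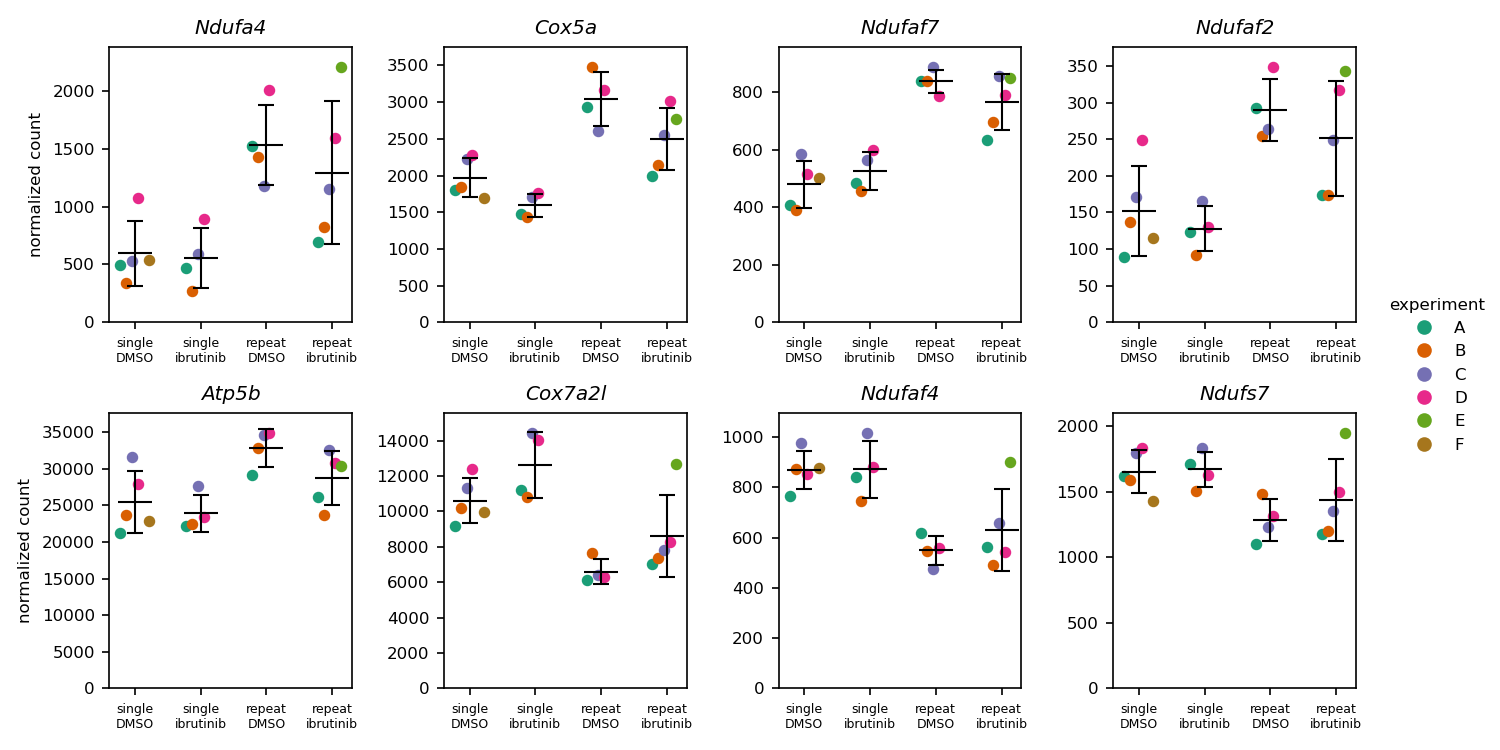
Normalized counts of 8 nuclear members in every library (points, coloured by experiment) with group mean ± SD (bars), for single and repeat peptide cells with DMSO or ibrutinib. *Ndufa4*, *Cox5a*, *Ndufaf7* and *Ndufaf2* are higher and *Cox7a2l* and *Ndufaf4* lower in every repeat than in every single peptide DMSO library, whereas the groups overlap for *Atp5b* and *Ndufs7*.

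Since the nuclear members are transcribed from separate promoters, their proximal sequence was set beside these changes. RefSeq windows of 250 bases before to 50 bases after the start (GRCm38.p6) were given for 76 of the 93 nuclear members. They were searched on both strands for the core of the NRF1 site (CGCATGCG), the ETS site of GABP (CCGGAAG), the YY1 site (AAGATGGC), the ERRA site (TCAAGGTCA) and the cyclic AMP response element (CRE, TGACGTCA), whose factors are known regulators of respiratory genes. The ETS and YY1 letters could share AAG, but no member had overlapping matches. NRF1 letters were found in 11 of 76 members (14.5%) against 2.07% of all 27025 genes with a window, ETS letters in 18 (23.7% against 9.93%), YY1 letters in 11 (14.5% against 3.19%), CRE letters in 4 (5.26% against 2.03%) and ERRA letters in 2 (2.63% against 0.466%). At least 1 of the 5 was present in 37 members (48.7% against 16% of all genes). Both ERRA matches were in members that rose with DMSO, *Sdhd* and *Atp5g3*. None of the 5 was found in the windows of *Ndufa4*, *Ndufaf2*, *Ndufaf7*, *Cox5a*, *Cox7a2l*, *Atp5b* and *Ndufv1*, which says only that these letters are not there. A match is a description of the sequence and not a bound site.

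Shown here are the 250 bases before the start of the called members *Ndufa11*, *Cox6a1*, *Sdhd*, *Atp5g3* and *Ndufaf4*, the first 4 higher and the last lower in repeat peptide cells, 5′ to 3′ on the strand of the gene. Capitals mark CRE and then NRF1 letters in *Ndufa11*, NRF1 and then reversed ETS letters in *Cox6a1*, reversed ETS letters in *Sdhd*, whose reversed ERRA match lies after the start, reversed ERRA letters in *Atp5g3* and NRF1 letters in *Ndufaf4*.
Ndufa11, chr17:56717512-56717761, plus strand: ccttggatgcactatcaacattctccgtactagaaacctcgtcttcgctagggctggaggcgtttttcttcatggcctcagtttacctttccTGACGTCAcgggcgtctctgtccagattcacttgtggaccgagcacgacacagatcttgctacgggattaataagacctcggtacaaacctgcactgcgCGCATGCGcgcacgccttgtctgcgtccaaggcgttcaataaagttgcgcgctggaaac
Cox6a1, chr5:115348959-115349208, minus strand: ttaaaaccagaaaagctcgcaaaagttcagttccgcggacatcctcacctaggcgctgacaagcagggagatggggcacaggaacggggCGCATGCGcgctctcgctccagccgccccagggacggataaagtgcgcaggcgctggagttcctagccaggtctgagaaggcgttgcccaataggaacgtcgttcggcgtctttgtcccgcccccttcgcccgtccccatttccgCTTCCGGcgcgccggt
Sdhd, chr9:50603850-50604099, minus strand: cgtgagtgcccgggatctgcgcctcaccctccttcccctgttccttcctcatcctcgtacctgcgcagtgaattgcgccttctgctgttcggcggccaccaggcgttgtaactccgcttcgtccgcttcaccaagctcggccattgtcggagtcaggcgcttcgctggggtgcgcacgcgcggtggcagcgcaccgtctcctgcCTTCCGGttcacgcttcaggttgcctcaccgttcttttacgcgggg
Atp5g3, chr2:73911327-73911576, minus strand: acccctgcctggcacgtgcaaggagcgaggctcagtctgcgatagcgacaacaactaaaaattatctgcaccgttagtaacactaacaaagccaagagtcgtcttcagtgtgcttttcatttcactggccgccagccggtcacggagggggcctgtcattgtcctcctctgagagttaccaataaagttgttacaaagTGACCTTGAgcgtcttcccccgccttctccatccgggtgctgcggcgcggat
Ndufaf4, chr4:24897833-24898082, plus strand: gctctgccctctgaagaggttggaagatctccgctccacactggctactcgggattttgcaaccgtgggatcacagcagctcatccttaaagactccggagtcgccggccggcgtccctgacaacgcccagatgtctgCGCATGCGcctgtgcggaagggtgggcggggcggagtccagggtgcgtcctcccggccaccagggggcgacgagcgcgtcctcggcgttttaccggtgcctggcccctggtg
The NRF1 letters thus stand before genes that moved in opposite directions.

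Genes known to regulate the respiratory genes were counted on the same libraries, against the 47% of all tested genes that were called (22.8% higher and 24.2% lower). Of 10 tested nuclear regulators 8 were called with DMSO, 3 of them higher and 5 of them lower after repeat stimulation. *Hif1a*, the hypoxia-inducible factor that favours glycolysis, rose by 1.56 ± 0.16 on the log2 scale (SE, edgeR's adjusted p = 2.87e-07), and *Gabpb1* (0.65) and *Nrf1* (0.40) rose as well. *Ppargc1b*, a coactivator of mitochondrial biogenesis, fell by 1.72 ± 0.20 (SE, edgeR's adjusted p = 1.27e-06), and its partner *Esrra*, which encodes ERRA, fell by 0.95. *Gabpb2* (-0.62), *Myc* (-0.57) and *Pprc1* (-0.52) were also lower, whereas *Gabpa* (0.04) and *Yy1* (-0.21) were not called, though *Yy1* was called lower with the block (edgeR's adjusted p = 0.0675 without and 0.0268 with it). Of 28 genes for the copying, transcription and RNA of mitochondrial DNA, 11 were called, 3 higher and 8 lower, which is 39.3% of the list. *Tefm*, an elongation factor of mitochondrial transcription, was at -0.90 and *Fastkd1* at -0.70, *Tfb1m* at 0.64 and *Fastkd3* at 0.48, while *Tfam* (-0.19) and *Polrmt* (-0.34), the main factor and the polymerase of mitochondrial transcription, were not called. Both were called lower with the experiment as a block, *Tfam* at -0.25 ± 0.09 (SE, edgeR's adjusted p = 0.0196) and *Polrmt* at -0.36 ± 0.10 (SE, edgeR's adjusted p = 0.00424). The block called 15 of the 28, where it called 53.6% of all tested genes.

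Genes that build the complexes without being members were counted next. Of 31 tested assembly factors of complexes II to V, 6 were higher and 6 lower, which makes 38.7% called against 47% of all tested genes. *Sco1* (0.71) and *Sco2* (-1.09), both copper chaperones of complex IV, went in opposite directions, as did *Cox19* (0.80), also of complex IV, and *Lyrm7* (-1.02) of complex III. Of 7 further complex I assembly factors *Nubpl* rose (0.99) and *Tmem186* (-0.84), *Ecsit* (-0.35) and *Foxred1* (-0.27) fell. *Cyc1*, the cytochrome of complex III outside the naming rule, rose by 0.29, and *Cycs*, cytochrome c, was at 0.52 and not called (edgeR's adjusted p = 0.0572), but it was higher in 4 of 4 experiments and called with the block, at 0.49 ± 0.11 (SE, edgeR's adjusted p = 0.00124).

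The pathways that feed the chain or run beside it were counted in the same way, against 22.8% of all tested genes higher and 24.2% lower. With the experiment as a block 53.6% of all tested genes were called in either direction. Of 13 citrate cycle genes 7 (53.85%) rose, with *Fh1* (0.68) the furthest, and *Suclg2* fell (-0.51). Of 20 glycolysis genes 16 (80%) rose and none fell, with a median of 1.05, led by *Ldhb* (2.93) and *Eno3* (2.02). Of 78 genes of the mitochondrial ribosome 13 (16.7%) rose and 3 (3.85%) fell, both below the shares of all genes, and with the block 23 rose and 8 fell. Of 96 tested genes of the cytosolic ribosome 33 (34.4%) fell and 1 rose, with a median of -0.58, and with the block 78 fell and 3 rose.

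Among the 13 mitochondrial genes, edgeR called only *mt-Nd6* between repeat and single peptide cells with DMSO. Their median log2 fold change was 0.12, with 8 above 0 and 5 below. *mt-Nd6* had 281, 136, 151 and 81.1 normalized counts in repeat and 68.4, 80.0, 102, 144 and 74.1 in single peptide cells, a log2 fold change of 0.79 ± 0.32 (SE, edgeR's adjusted p = 0.0479). The groups overlapped, it was lower rather than higher in experiment D, and the call was lost without repeat DMSO A or C, single DMSO A, B, C or F, repeat ibrutinib C or D, or single ibrutinib A. With the experiment as a block *mt-Nd6* was not called either (edgeR's adjusted p = 0.0753), and *mt-Co1* at 0.36 ± 0.15 (SE, edgeR's adjusted p = 0.0419) and *mt-Cytb* at 0.51 ± 0.15 (SE, edgeR's adjusted p = 0.00647) were called instead.

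The abundant mitochondrial messages varied widely between experiments. *mt-Co1* had 270325, 220379, 202086 and 151375 normalized counts in repeat and 172155, 165007, 140467, 176947 and 288661 in single peptide cells with DMSO. Single DMSO F held the highest value of both groups and repeat DMSO D nearly the lowest, and the log2 fold change was 0.16 ± 0.19 (SE, edgeR's adjusted p = 0.494). *mt-Cytb* had 73093, 61179.7, 58854 and 42123 against 40967, 42882, 36026, 44710.1 and 64359, a log2 fold change of 0.36 ± 0.18 (SE, edgeR's adjusted p = 0.0936). In experiments A, B and C the median of the 13 genes was higher in repeat peptide cells, by 0.37, 0.25 and 0.39 on the log2 scale. In experiment D all 13 were lower, with a median of -0.56. The other 10 genes had log2 fold changes between -0.44 (*mt-Nd3*) and 0.24 (*mt-Atp8*), none of them called. Reads of *mt-Atp8* and *mt-Atp6* and of *mt-Nd4l* and *mt-Nd4* come from overlapping genes and could be split between them.

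**Figure D4:**
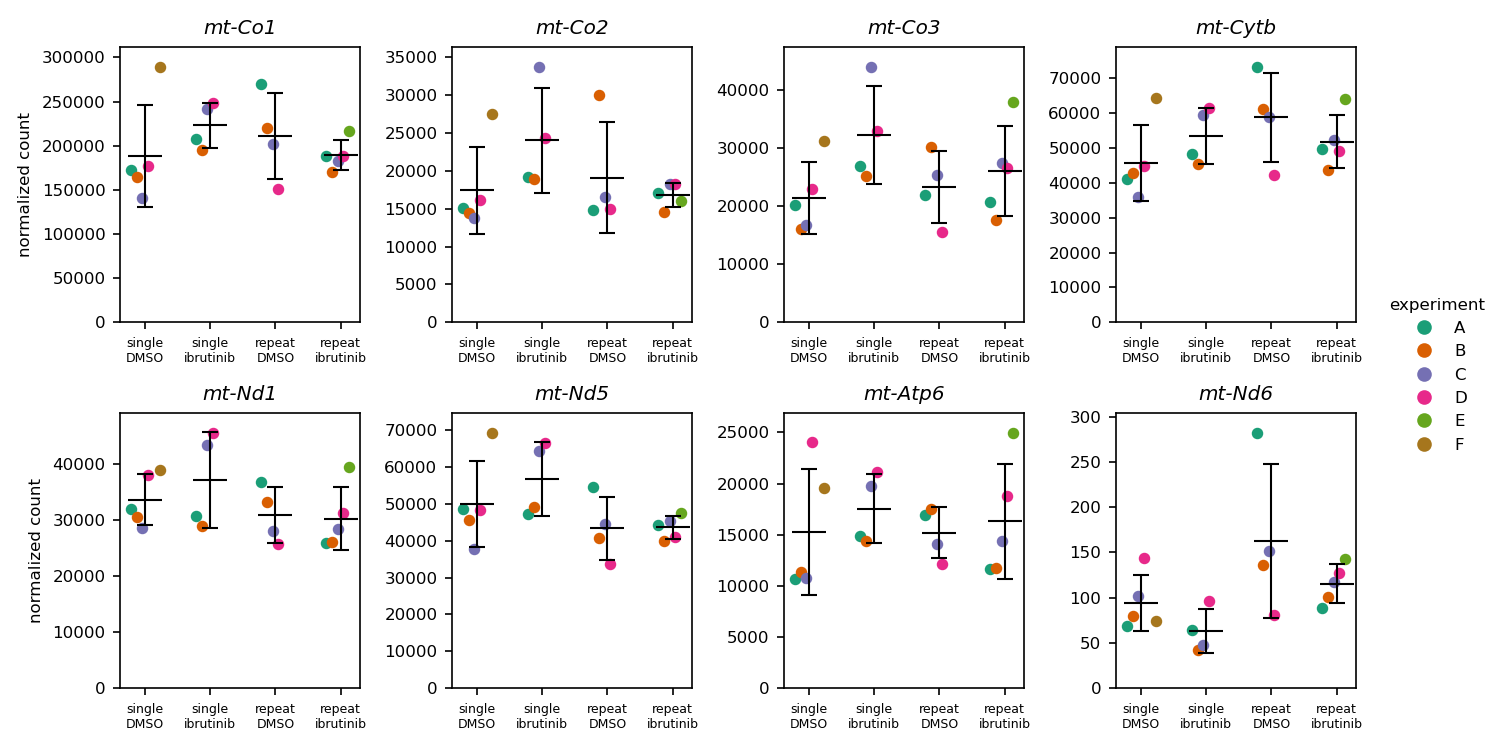
Normalized counts of 8 genes of mitochondrial DNA in every library (points, coloured by experiment) with group mean ± SD (bars). The 4 groups overlap for *mt-Co1*, *mt-Cytb* and *mt-Nd6*; *mt-Co2* in repeat peptide cells with ibrutinib (14553 to 18312) lies below single peptide cells with ibrutinib (18943 to 33657).

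With ibrutinib in both arms, repeat peptide cells were compared with single peptide cells in the same way. Of the 86 nuclear members 14 were called, 11 higher and 3 lower, where 38.4% of all tested genes were called, 18.7% higher and 19.6% lower. The median log2 fold change was 0.29 with 74 members above 0 and 12 below, and by complex it was 0.50 in IV, 0.28 in III, 0.27 in I and V and 0.20 in II. *Ndufa4* (1.22, edgeR's adjusted p = 0.0126), *Ndufaf2* (0.98), *Cox5a* (0.65), *Atp5g3* (0.66) and *Ndufaf7* (0.54) were again called higher, and *Cox7a2l* (-0.55) and *Ndufaf4* (-0.47) lower. *Cox5a* had 1993, 2145, 2555, 3015 and 2766 normalized counts in repeat peptide cells with ibrutinib (experiments A to E) and 1477, 1433, 1702 and 1760.4 in single peptide cells with ibrutinib (A to D), without overlap. *Ndufa4* had 693, 820.2, 1156, 1596 and 2203 against 470.3, 274, 587 and 891, which overlapped because single ibrutinib D lay above repeat ibrutinib A and B, and *Cox7a2l* had 7003, 7367, 7805, 8271 and 12688 against 11211, 10795, 14404 and 14025, which overlapped through repeat ibrutinib E. Also called here were the accessory complex I subunits *Ndufc2* (0.80), *Ndufc1* (0.69) and *Ndufb6* (0.54), *Uqcr10* of complex III (0.75), *Cox5b* of complex IV (0.50) and *Atp5j* of the stalk of complex V (0.62), all higher, and *Sdha* (-0.25), which was lower. None of these 7 was called with DMSO, but *Ndufc1*, *Ndufc2* and *Uqcr10* were called higher there with the block, and the interaction called no member, so that a difference between the treatments was not shown.

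The number of calls under ibrutinib rested on single libraries. It was 6 without repeat ibrutinib D, 8 without repeat ibrutinib E, 7 without single ibrutinib A and 8 without single ibrutinib B, but 24 (23 higher) without repeat ibrutinib A and 23 (22 higher) without repeat ibrutinib B. Without any of the first 4 of these libraries, *Ndufc1*, *Ndufc2*, *Ndufb6*, *Uqcr10*, *Cox5b* and *Atp5j* each lost their call, and so did all 6 with fragment length as a covariate, which left 7 nuclear members called. *Ndufb6* and *Ndufc1* lost it without further libraries too, and *Ndufaf4* lost it without repeat ibrutinib A, B or D or single ibrutinib C. *Sdha* had 8762, 8197, 9481, 8496 and 8016 normalized counts in repeat and 9827, 9721, 11288 and 10082 in single peptide cells with ibrutinib, without overlap, and was at -0.25 ± 0.09 (SE, edgeR's adjusted p = 0.0313). Its call was lost without repeat ibrutinib A, B, D or E, single ibrutinib A, C or D, or repeat DMSO B or D. With the experiment as a block 25 nuclear members were called, 19 higher and 6 lower and including all 14, where 48.6% of all tested genes were called. *Uqcrh*, at 0.06 without the block, was then called lower at -0.28 ± 0.12 (SE, edgeR's adjusted p = 0.0475). With DESeq2 22 were called, 19 of them higher. The 2 comparisons of stimulation share no libraries, but experiments A to D stand in both and all groups share the estimate of the spread. The 2 comparisons are thus not independent.

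Of the mitochondrial genes *mt-Nd6* was again the only one called, with 88.5, 101, 117, 127 and 143 normalized counts in repeat and 64.5, 42.1, 48.2 and 96.5 in single peptide cells with ibrutinib. The log2 fold change was 0.88 ± 0.34 (SE, edgeR's adjusted p = 0.041), and it was higher in 4 of 4 experiments, but the call was lost with the block (edgeR's adjusted p = 0.0519), with fragment length as a covariate and without repeat ibrutinib C, D or E or single ibrutinib A, B or C. Most of the other genes lay on the other side of 0 without being called: 11 of 13 were below 0 and the median was -0.24, against 0.12 with DMSO. Within experiments A to D that median was -0.14, -0.25, -0.50 and -0.41. *mt-Co2* had 17014, 14553, 18312, 18297 and 16012 against 19170.0, 18943, 33657 and 24303, without overlap, and was not called at -0.51 ± 0.23 (SE, edgeR's adjusted p = 0.0838). Blocking by experiment, *mt-Nd1* (-0.40), *mt-Nd4* (-0.41) and *mt-Nd5* (-0.42) were called lower.

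Without the experiment as a block, ibrutinib against DMSO within repeat peptide cells called no member of either genome. That fit called 5.92% of all tested genes. At an unadjusted p under 0.05 edgeR had 4 nuclear members, 3 of them lower, and no mitochondrial gene, and DESeq2 called none, with 5 nuclear members and no mitochondrial gene at an unadjusted p under 0.05. The median log2 fold change was 0.05 for the nuclear and -0.08 for the mitochondrial members. Within experiments A to D the nuclear median was -0.23, -0.38, 0.07 and 0.01 and the mitochondrial one -0.52, -0.42, -0.03 and 0.39. In experiment B only 2 of 86 nuclear members were higher with ibrutinib and in experiment D all 13 mitochondrial genes were higher. With the experiment as a block 4 nuclear members were called, all lower, where 13.8% of all tested genes were: *Cox5a* at -0.34 ± 0.10 (SE, edgeR's adjusted p = 0.035), *Ndufv1* at -0.24 ± 0.08 (SE, edgeR's adjusted p = 0.0453), *Uqcr10* at -0.42 and *Ndufab1*, the acyl carrier protein of complex I, at -0.33.

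*Ndufv1* had 2887, 2809, 3339, 3314 and 3226 normalized counts in repeat peptide cells with ibrutinib (A to E) against 3549.9, 3742, 3620.1 and 3613 with DMSO (A to D). It lay lower in every ibrutinib library than in every DMSO library, yet without the block its log2 fold change was -0.22 ± 0.10 (SE, edgeR's adjusted p = 0.188). *Cox5a* was lower in all 4 experiments and at -0.29 ± 0.13 (SE, edgeR's adjusted p = 0.2) without the block. Of the genes around the chain, *Sco1* fell by 0.68 ± 0.12 on the log2 scale (SE, edgeR's adjusted p = 0.00163) and *Dlst* of the citrate cycle fell by 0.26. Of all tested genes 5.92% were called here, 4.01% higher and 1.92% lower, and 13.8% with the block. Of 31 assembly factors of complexes II to V *Sco1* was the only one called, against 3 with the block. Of 20 glycolysis genes 4 fell and none rose, with *Eno3* at -1.08 and *Tpi1* at -0.96, and with the block 9 fell. Of 96 genes of the cytosolic ribosome edgeR and DESeq2 called none, with 0 and 2 at an unadjusted p under 0.05, and the block called 1. Of 10 nuclear regulators none was called by edgeR or DESeq2, with 5 at an unadjusted p under 0.05 by either, and 1 was called higher with the block. Of 28 genes of mitochondrial DNA and RNA edgeR called none, with 5 at an unadjusted p under 0.05, DESeq2 called 1 and the block 2. Of 78 genes of the mitochondrial ribosome edgeR called none, with 5 at an unadjusted p under 0.05, DESeq2 called 1 and the block 4.

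In single peptide cells ibrutinib again called no member of either genome without the block. That fit called 3.04% of all tested genes. At an unadjusted p under 0.05 edgeR had 3 nuclear members, all lower, and 1 mitochondrial gene, and DESeq2 called none and had the same numbers at an unadjusted p under 0.05. The median log2 fold change was -0.09 for the nuclear and 0.19 for the mitochondrial members. With the experiment as a block 3 nuclear members were called lower and 1 mitochondrial gene higher, where 9.09% of all tested genes were called. *Atp5k*, the e subunit of complex V, was at -1.11 ± 0.22 (SE, edgeR's adjusted p = 0.00377), *Atp5g3* at -0.37 ± 0.08 (SE, edgeR's adjusted p = 0.00749), *Cox5a* at -0.35 ± 0.10 (SE, edgeR's adjusted p = 0.0422) and *mt-Co3* at 0.74 ± 0.21 (SE, edgeR's adjusted p = 0.0409).

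*Cox5a* had 1477, 1433, 1702 and 1760.4 normalized counts with ibrutinib (A to D) against 1808, 1847, 2220.2, 2283 and 1693 with DMSO (A to D and F), lower in 4 of 4 experiments though the groups overlapped. *Atp5g3* had 3396, 3366, 4329.8 and 4013 against 3939, 4299, 6248, 5137 and 3851, again lower in all 4 experiments. *mt-Co3* had 26879, 25268, 43902 and 33026 against 20124, 16033, 16765, 22932 and 31197. It was higher with ibrutinib in all 4 experiments, while single DMSO F, which has no ibrutinib partner, lay among the ibrutinib libraries. Without the block these were at -0.31, -0.31 and 0.59 on the log2 scale and not called (edgeR's adjusted p = 0.286, 0.358 and 0.262). Of the lists around the chain edgeR called no gene in single peptide cells. Of all tested genes edgeR called 3.04%, and 9.09% with the block. With the block it called 5 genes of the mitochondrial ribosome, all lower, 2 of mitochondrial DNA and RNA, both higher, and 1 lower each of glycolysis and the assembly factors of complexes II to V. DESeq2 called 1 gene each of mitochondrial DNA and RNA and of the mitochondrial ribosome, and the most at an unadjusted p under 0.05 by edgeR were the 5 of the mitochondrial ribosome. Both drug comparisons use DMSO libraries that also stand in the comparison of the stimulations.

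**Figure D5:**
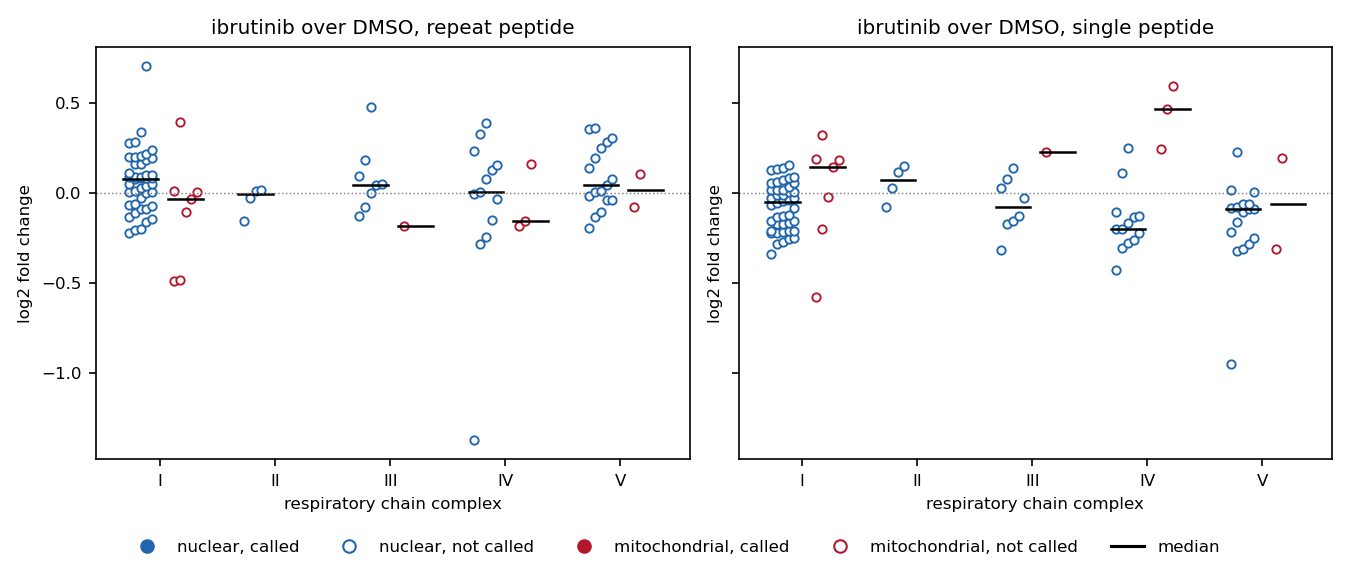
Log2 fold change of each tested member between ibrutinib and DMSO, for each stimulation and complex, for nuclear (blue) and mitochondrial (red) genes; filled points would be called and black lines are medians. No member is filled in this fit, which has no block for the experiment. The medians of all nuclear members are 0.05 in repeat and -0.09 in single peptide cells.

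The difference between the ibrutinib effects in repeat and single peptide cells, tested as an interaction, called no member, where it called 1.26% of all tested genes. EdgeR had no nuclear or mitochondrial member even at an unadjusted p under 0.05, and DESeq2 called none and had none at that level. Blocking by experiment called no member either, with 1 nuclear and 6 mitochondrial members at an unadjusted p under 0.05. The median interaction was 0.14 on the log2 scale over the nuclear and -0.29 over the mitochondrial members. The widest values were 0.95 ± 0.62 (SE) for *Atp5k* and -0.95 ± 0.97 (SE) for *Cox6b2*, which has few counts.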

How the data were processed

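RNA-seq libraries were made from polyadenylated RNA with a strand-specific kit and sequenced from both ends. The authors trimmed the reads with Trim Galore and mapped them to GRCm38 with RSEM, and the submitters' processing notes name RSEM 1.3.1, SAMtools 1.10, R 4.0.3 and DESeq2 1.30.0. The deposited expected counts were estimated by the authors for each gene with RSEM, which divides a read that fits several genes among them. The deposited TPM values divide, as the authors made them, each count by effective length and bring every library to an equal sum, and the deposited FPKM values were not used. The strand setting of the counting is not given in the sources used here, so that reads of members and of genes overlapping them may be mixed.

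Before testing, expected counts were rounded, and only the 27903 genes annotated as protein-coding or lncRNA were used (GENCODE M21 names, 45143 of 45706 identifiers matched). In R 4.3.3 with edgeR 4.0.16 and limma 3.58.1, 12255 genes passed filterByExpr. They were scaled with TMM factors, and glmQLFit (robust) was run once over all 4 groups. glmQLFTest was used for the comparisons, with Benjamini-Hochberg adjustment over all 12255 genes. Normalized counts are scaled to the mean effective library size. DESeq2 1.42.0 served as an alternative. Differences within an experiment are of log2(normalized count + 2). Mean fragment length was worked out from long genes only. It was the median of their deposited length minus their effective length, with a base added.

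The members and lists were chosen with earlier results of these data known. Named were all 13 mitochondrial genes, the called nuclear members with the largest rises and falls in each comparison, the nuclear member of each complex with the highest TPM, the complex II genes and the isoform sets. The other called members were named after their values were seen. The lists around the chain cover regulators, mitochondrial DNA and RNA, assembly factors, cytochrome c, mitochondrial and cytosolic ribosomes, the citrate cycle and glycolysis.

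The pairing of libraries by experiment was checked by correlating their deviations from the group means. The 24 pairs from the same experiment correlated at 0.237 to 0.679 (median 0.483), and the other 97 pairs had a median of -0.121. The experiments, taken from the genotype entry of the labels, thus pair the libraries, but only an alternative fit had a block for the experiment. The main calls, and the absence of called members for ibrutinib, come from a fit that leaves out this pairing. Counts of libraries in a group differed far beyond sampling noise, so no library was a copy of another. The scripts were tested on simulated data.

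Other settings tried were size factors of DESeq2, testing without the low count filter, a fit of only the compared groups, an effective length offset, adjusted p alone, an absolute log2 fold change above 0.5 and each library left out in turn. Fragment length as a covariate, the block together with it or with the offset, and the mitochondrial share without 3 short genes were added after seeing the data. Some items withheld from this text are not reported here.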

Additional observations from a re-analysis of the deposited data

Results flagged for a closer look

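In 16 of 232 sets of values, each a measure in the 4 or 5 libraries of a group, a library stood so far apart that its gap to the nearest of the others took up more of the whole range than Dixon's 95% critical value for that number of libraries. Chance alone gives about 1 such set in 20.

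Among the single peptide DMSO libraries, that of experiment D was the highest for *Ndufa4* (1078.3 normalized counts, next 537), *Cox7a2* (2357.5, next 1068), *Cox7c* (2916, next 1188), *Cox8a* (3024, next 2421), *Ndufa6* (3120.3, next 1594) and *mt-Atp8* (1116, next 518). It was also the library with the shortest fragments of all, 339 bases. In the same group that of experiment F was the highest for *mt-Co1* (288661 normalized counts, next 176947) and *mt-Co2* (27526, next 16213).

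Among the repeat peptide DMSO libraries, that of experiment A held 4.71% of its TPM in mitochondrial genes (next 2.79%) and had 1737 normalized counts of *mt-Atp8* (next 334), and that of experiment B had 30017 of *mt-Co2* (next 16599). Among the repeat peptide ibrutinib libraries, that of experiment E had 12688 normalized counts of *Cox7a2l* (next 8271) and that of experiment D 31.2 of *Cox6b2* (next 14.8). Among the single peptide ibrutinib libraries, that of experiment D held 4.12% of its TPM in mitochondrial genes (next 2.64%), that of experiment C had 26549 normalized counts of *Atp5a1* (next 21958), and that of experiment A had 0 of *Cox6b2*, the lowest of its group (next 3.71). The causes of these differences were not tested.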

How the results depend on the processing

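*Ndufa4*, *Cox5a*, *Ndufaf2* and *Ndufaf7* kept their call under all 31 alternatives in both comparisons of repeat with single peptide cells. With DMSO the nuclear count of 14 became 28 with the replicate block, 24 with fragment length as a covariate, 25 with both, 26 with the block and the effective length offset and 7 above an absolute log2 fold change of 0.5; leaving out a library gave 11 (repeat DMSO C) to 20 (single DMSO D). The mitochondrial count of 1 became 0 with no filter or with only the groups compared, 2 with the block, 2 with block and fragment length and 3 with block and offset, and 0 to 2 without a library (2 without repeat DMSO D). With ibrutinib the nuclear count of 14 became 8 with no filter, 25 with the block, 7 with fragment length and 22 with DESeq2, and 6 (without repeat ibrutinib D) to 24 (without repeat ibrutinib A) without a library. The mitochondrial count of 1 became 0 with no filter or with fragment length, 2 with only the groups compared and 3 with the block, alone or with fragment length or offset, and 0 to 3 without a library (3 without single DMSO F). *Uqcrh*, at 0.06, was called lower with the block (-0.28), with block and fragment length (-0.32) and with block and offset (-0.34).

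For ibrutinib against DMSO the count of 0 nuclear members became 4 in repeat and 3 in single peptide cells with the block, 1 in repeat peptide cells with block and fragment length, and 2 in single peptide cells with block and offset. That of 0 mitochondrial genes became 1 in single peptide cells with the block and 2 with block and offset. These counts stayed at 0 in all fits that left out a library, and the interaction at 0 in every alternative run. Over all tested genes the block raised the calls from 726 to 1694 in repeat and from 373 to 1114 in single peptide cells.

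As shares of counts the mitochondrial genes held 1.65, 1.505, 1.43 and 1.69% and the nuclear members 0.904, 0.889, 0.757 and 0.738% (repeat DMSO, repeat ibrutinib, single DMSO, single ibrutinib). Without *mt-Atp8*, *mt-Nd3* and *mt-Nd4l* the mitochondrial share of TPM was 2.07% in repeat ibrutinib and 1.95% in single DMSO. The causes of these changes were not tested. *Cox6b2* and *Atp5s*, with mean normalized counts of 15.3 and 45.96, lie below the minimum of 50 for a call.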
